A study of Bos taurus and Mus musculus with 16 samples.

Results

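Aminoacyl-tRNA synthetases join each amino acid to its transfer RNA, the step that feeds protein synthesis on ribosomes. The genes were taken by symbol: the cytosolic and mitochondrial synthetases, and the scaffold genes AIMP1 and AIMP2 of the multi-synthetase complex. The rule found 39 of the 16655 genes in the mouse table and 39 of the 14852 in the bovine table, in each case 20 cytosolic enzymes or subunits, 17 mitochondrial enzymes and 2 scaffold genes. All 39 mouse genes and 38 of the bovine ones had a mean of at least 10 normalized reads and were tested. The exception was bovine PARS2, the mitochondrial prolyl-tRNA synthetase, with 2.92 to 15.8 normalized reads in controls and 5.02 to 12.5 in edited samples.

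The data are polyadenylated RNA of whole preimplantation embryos, made into libraries by Smart-seq2. All 16 samples came from zygotes that had received mRNA of BE3, a cytosine base editor made of a Cas9 nickase fused to a cytidine deaminase. Control embryos got BE3 mRNA alone, and edited embryos got it with a mix of guide RNAs against TEAD4, a transcription factor of the Hippo pathway that acts with YAP in the outer cells of the early embryo. Mouse morulae were taken at day 3.25 (2 control, 2 edited samples), and bovine blastocysts at day 7 (6 control, 6 edited). The controls carried no guide RNA, so effects of guide RNA as such cannot be told apart from effects of editing TEAD4. Strain, breed, the number of embryos per sample and whether replicates came from separate injections are not given in the sources used here. The p-values therefore speak of the spread among these samples alone, and that spread may be technical.

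Most amino acids are served by a cytosolic enzyme and by a separate mitochondrial one, both encoded in the nucleus, and the mitochondrial genes end in 2. EPRS joins both glutamate and proline, FARSA and FARSB are the subunits of 1 cytosolic enzyme, and GARS and KARS each encode forms for both compartments. In the cytosol, EPRS, IARS, LARS, MARS, QARS, RARS, KARS and DARS sit in the multi-synthetase complex, held together by AIMP1, AIMP2 and EEF1E1. Several cytosolic synthetase genes are known targets of ATF4, the transcription factor of the amino acid response.

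The samples held 3642907 to 6109425 reads in mouse and 817329 to 2501592 in cattle. Normalized reads are the authors' read counts divided by a size factor per sample, and 3 recovered reads were worth 2.13 to 3.79 normalized reads in mouse and 1.71 to 5.56 in cattle. Tead4 itself fell in mouse, from 458 and 519 normalized reads to 57.2 and 76.5 (log2 fold change -2.86, limma adjusted p = 5.37e-09). In cattle TEAD4 had 61.2 to 125 in controls and 22.6 to 65.6 in edited samples (-1.25 ± 0.25 SE, limma adjusted p = 0.235, and 0.00830 with DESeq2). The summed trophectoderm markers were 6205 to 7167 in mouse controls and 1979 to 2173 in edited morulae, and overlapped in cattle. Without overlap in mouse as well, inner cell mass markers summed to 2614 to 3120 in controls and 3250 to 3767 in edited morulae, primitive endoderm markers to 1600.2 to 1706 and 1342 to 1412, blood markers to 64.5 to 74.9 and 88.6 to 165, and cumulus cell markers to 8.85 to 14.5 and 14.9 to 30.5. Some members moved against their sum. By group mean, Nanog fell from 1768 in controls to 1311 in edited morulae (limma adjusted p = 0.122). Of the 4 primitive endoderm markers only Gata6 fell by group mean, from 1566 to 1244 (0.190). Gata4 rose from 7.22 to 39.7 (0.00549). Pdgfra rose from 66.1 to 75.4 and Sox17 from 13.5 to 17.8, the latter with a log2 fold change of -0.78, and neither passed. Tfap2c rose from 655 to 753 and Eomes from 44.4 to 62.6, neither past the threshold. For single genes, both edited samples lay above both controls in 28.6% of all tested mouse genes and below them in 29.2%. Of the 8 cumulus markers only 2 are listed for mouse. Of the 6 blood markers 2 are, Cd68 (64.7 in controls, 106 in edited morulae, by group mean) and Hba-a1 (5.03 and 20.6), neither past the threshold. Of 5 sperm markers none is listed for mouse. In cattle cumulus markers summed to 7.99 to 36.5 in controls and 11.0 to 35.2 in edited samples. The part of these marker shifts in the mouse results below was not tested. Because whole embryos were measured, fewer cells of a type and less RNA per cell cannot be told apart.

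In mouse morulae the scaffold gene Aimp1 and the mitochondrial phenylalanyl-tRNA synthetase gene Fars2 were lower after editing, while none of the 8 enzymes of the multi-synthetase complex passed the test. No synthetase gene passed in the higher direction. These 2 calls among 39 genes stood beside 8.38% of all 11386 tested genes called lower and 6.92% called higher. Counts this small do not tell the family apart from the table as a whole. At an unadjusted p under 0.05, 4 of the 39 genes were higher and 4 lower, against 13.4% and 15.2% of all genes. Of the lower ones 2 were the scaffold genes.

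Aimp1 encodes the scaffold protein that binds the arginyl-tRNA synthetase and is also released as a cytokine. It lies on chromosome 3 from 132660499 to 132684370 (GRCm38, minus strand) and has 7 coding exons. The controls held 847 and 911 normalized reads of Aimp1, and the edited samples 506 and 603. Both edited samples lay below both controls, with a log2 fold change of -0.67 ± 0.18 (SE) and an adjusted p of 0.0140, and the authors' deposited table gives -0.66 with an adjusted p of 0.0117. Without control 1 (log2 fold change -0.72) or control 2 (-0.62), where fewer genes of the whole table were called too, the Aimp1 call was lost. It was also lost when the trend of values on transcript length was removed (log2 fold change -0.35, adjusted p = 0.188), the Aimp1 transcript being 1126 nt long.

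Aimp2, the scaffold protein that anchors the lysyl-tRNA synthetase, had 992 and 723 normalized reads in controls and 662 and 617 in edited samples, which again do not overlap. Its log2 fold change of -0.41 ± 0.19 (SE) did not pass (adjusted p = 0.157). That value was -0.18 without control 1, -0.63 without control 2 and -0.12 with the length trend removed, the Aimp2 transcript being 1185 nt long. At equal totals without LOC101056014 and Lars2 it was -0.22. The annotated exons of Aimp2 overlap those of Eif2ak1 on the opposite strand by 487 nt, and the strand setting of the counting is not given in the sources used here. Eef1e1, the other scaffold gene of the complex, which the symbol rule does not take, had 1424 to 1484 normalized reads in controls. It had 1008 to 1094 in edited samples (-0.47 ± 0.17 SE, adjusted p = 0.0598). With each sample left out in turn its log2 fold change ranged from -0.53 to -0.41. The 3 scaffold genes thus pointed the same way, with 1 of them past the threshold.

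The 8 enzymes of the complex gave log2 fold changes from -0.10 for Qars to 0.24 for Mars, 4 above 0 and 4 below, with a median of 0.002. Their 95% intervals ran at the widest from -0.47 to 0.68. Kars, the lysyl-tRNA synthetase, had 1163 and 1174 normalized reads in controls and 1150 and 1222 in edited samples. Eprs, the bifunctional enzyme, had 1368 and 1495 in controls and 1420 and 1328 in edited samples. Each of these genes overlapped between groups, and neither differed beyond the spread between samples.

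The 12 cytosolic genes outside the complex had a median log2 fold change of 0.20, with 9 above 0, and none passed. Aars, the alanyl-tRNA synthetase, had 514 and 592 normalized reads in controls and 823 and 743 in edited samples (0.50 ± 0.19 SE, adjusted p = 0.0668). Farsa, the catalytic subunit of the cytosolic phenylalanyl-tRNA synthetase, had 401 and 439 in controls and 559 and 649 in edited samples (0.52 ± 0.19 SE, adjusted p = 0.0690). Its partner subunit Farsb had 755 and 673 in controls and 566 and 709 in edited samples, with a log2 fold change of -0.17. So the edited samples lay above both controls for Aars and Farsa, and overlapped the controls for Farsb. When samples were scaled to equal totals, Aars (0.63, adjusted p = 0.0193) and Farsa (0.65, 0.0204) passed. Leaving out each sample in turn, Aars ranged from 0.40 to 0.60 and Farsa from 0.41 to 0.63. The Aars gene (chromosome 8, 111033144 to 111057664, GRCm38, plus strand) shares 1326 nt of exon with Exosc6 on the same strand. Exosc6, an exosome subunit, was lower in edited samples (-1.12 ± 0.22 SE, adjusted p = 0.00110, and 0.0559 without control 1), the opposite direction to Aars.

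Over all 20 cytosolic genes in mouse, 13 log2 fold changes were above 0, with a median of 0.15, beside 49.7% of all tested genes above 0 and a median of -0.005. A log2 fold change of at least 0.2 was seen in 9 of the 20, against 37.1% of all genes. Without edited sample 2 the cytosolic median was 0.04. Counting genes whose groups do not overlap, 18 of the 39 synthetase and scaffold genes (46.2%) had both edited samples above both controls, against 28.6% of all genes, and 7 (17.9%) had both below, against 29.2%. At equal totals, where the median of all genes moved to 0.12, the cytosolic median was 0.27. With LOC101056014 and Lars2, both very abundant, left out of those totals, it was 0.33 with all 20 above 0, beside a median of all genes of 0.17. LOC101056014 took 2.42% and 3.30% of reads in controls and 7.20% and 4.73% in edited samples.

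**Figure D1:**
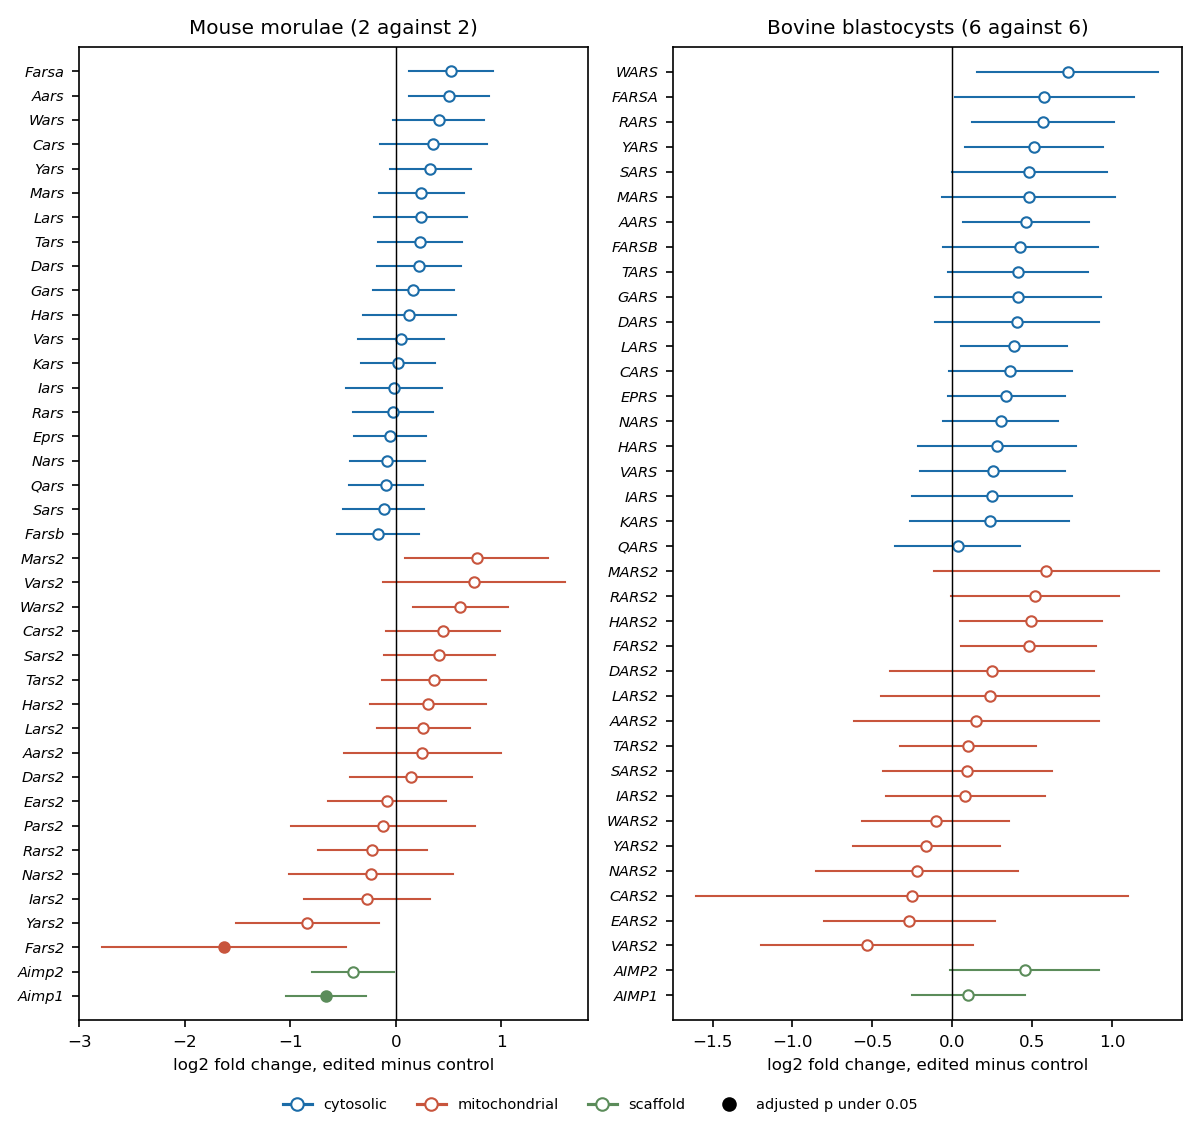
Log2 fold change (edited minus control, on log2(value + 1)) of each tested synthetase and scaffold gene with its 95% interval in mouse morulae and bovine blastocysts, grouped as cytosolic, mitochondrial and scaffold; filled points have a limma adjusted p under 0.05. Only mouse Fars2 and Aimp1 are filled, and all 20 bovine cytosolic genes lie above 0.

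Among the 17 mouse mitochondrial enzymes changes were wider, from -1.63 for Fars2 to 0.76 for Mars2, with 10 above 0 and a median of 0.25. Fars2, which charges mitochondrial tRNA with phenylalanine, lies on chromosome 13 from 36117412 to 36726280 (GRCm38, plus strand). It had 30.2 and 31.6 normalized reads in controls and 7.63 and 11.3 in edited samples, which stand for 27, 25, 8 and 16 recovered reads. Both edited samples lay below both controls, and Fars2 fell by 1.63 on the log2 scale (SE 0.56, adjusted p = 0.0493). With so few reads the call sits at the threshold. It was lost at a pseudocount of 0.5 (adjusted p = 0.0514), with edgeR on recovered reads (0.0542) and with DESeq2 on them (0.137). It was lost too without control 1 (0.240), control 2 (0.258) or edited sample 1 (0.142), and the authors' deposited table gives an adjusted p of 0.132. Its annotated exons overlap those of Nrn1 by 501 nt and of Lyrm4 by 115 nt, both on the opposite strand, and Nrn1 was not analysed here. Lyrm4 itself stood at -0.35 on the log2 scale (adjusted p = 0.331).

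Wars2, the mitochondrial tryptophanyl-tRNA synthetase, had 286 and 231 normalized reads in controls and 453 and 341 in edited samples (0.61 ± 0.22 SE, adjusted p = 0.0602). Yars2, its tyrosine counterpart, had 140 and 188 in controls and 56.3 and 144 in edited samples (-0.84 ± 0.33 SE, adjusted p = 0.0839). For Wars2 both edited samples exceeded both controls. For Yars2 the groups overlapped, and edited sample 1 alone was far below the rest. Wars2 passed at equal totals (adjusted p = 0.0229). Leaving out each sample in turn, Wars2 ranged from 0.40 to 0.81 and Yars2 from -1.51 to -0.17. The far ends, 0.81 and -1.51, came without edited sample 2. Mars2, the mitochondrial methionyl-tRNA synthetase, had 50.3 and 48.1 in controls and 84.9 and 83.6 in edited samples (0.76 ± 0.33 SE, adjusted p = 0.120). The mitochondrial median of 0.25 shrank to 0.003 without edited sample 2.

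**Figure D2:**
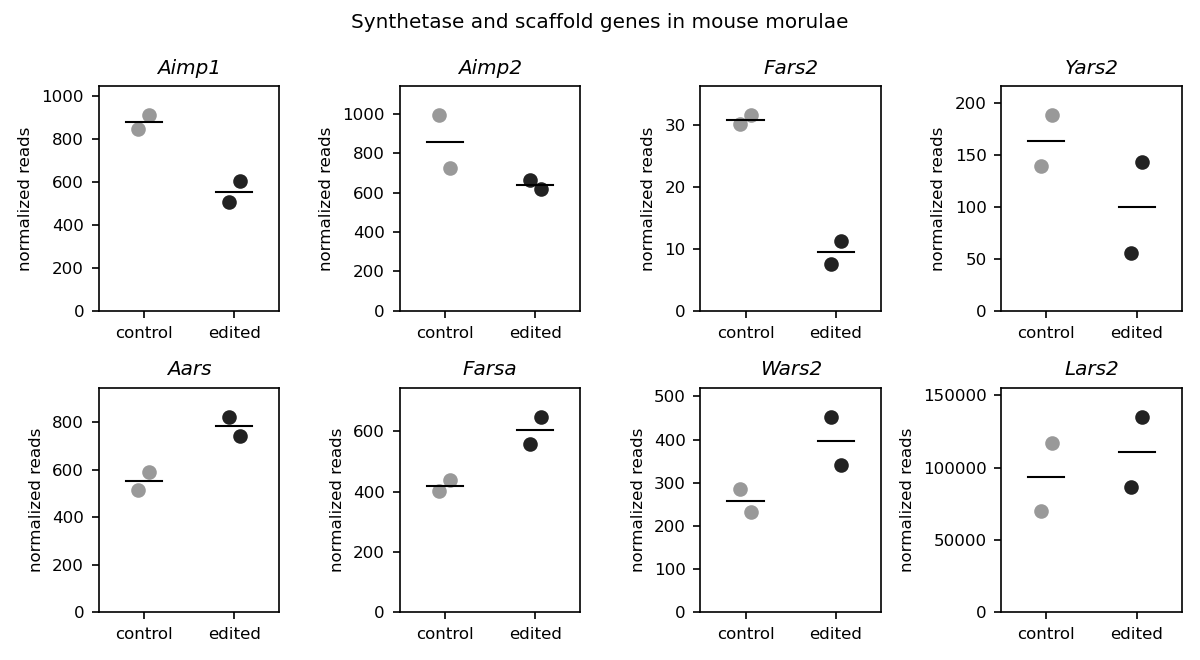
Normalized reads (vertical axis, from 0) of 8 genes in each mouse control and edited sample; points are samples and lines are group means. Aimp1 (506 and 603 against 847 and 911) and Fars2 lie lower in both edited samples, Aars, Farsa and Wars2 higher, and Yars2 and Lars2 overlap between groups.

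Levels between genes were compared in mouse per kilobase of the longest annotated transcript. Cytosolic genes had a median of 197 normalized reads per kilobase and mitochondrial genes, Lars2 left aside, one of 34.4. Apart from Lars2, the highest means over all 4 samples were those of Aimp1 (637 ± 171 per kilobase, SD), Aimp2 (632 ± 142) and Kars (538 ± 14.3). These SDs pool controls and edited samples, so they also hold any difference between the groups. In controls Aimp1 stood at 752 and 809 per kilobase, Aimp2 at 837 and 611 and Kars at 531 and 536. In edited samples Aimp1 stood at 449.6 and 536, Aimp2 at 558 and 521 and Kars at 525 and 558, so both scaffold genes lay above Kars in both controls, while in edited samples the ranges of the 3 genes overlapped. Per kilobase of coding length the medians were 300.3 for cytosolic and 64.8 for mitochondrial genes, with the same order of classes.

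Lars2, the mitochondrial leucyl-tRNA synthetase, stood far outside this range at 26218 ± 7559 (SD over 4 samples) normalized reads per kilobase of transcript. It had 69753 and 116993 normalized reads in controls and 86530 and 135092 in edited samples, or 1.49% to 3.12% of all reads of a sample. The groups overlapped (log2 fold change 0.26, adjusted p = 0.461), and the samples differed more within groups than between them. With each sample left out in turn the log2 fold change ranged from -0.11 to 0.63. Lars2 lies on chromosome 9 from 123366927 to 123462666 (GRCm38, plus strand). Its 3894-nt transcript shares 22 stretches of 31 bases with Gm15564, between bases 3278 and 3329, and 26 with AA474408, between bases 3172 and 3313, both downstream of the last coding base at 2905. How reads with several matches were counted is not given in the sources used here. The value of Lars2 is therefore uncertain, and the part of such reads in it was not tested. In bovine blastocysts LARS2 had 7.69 to 21.2 normalized reads.

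**Figure D3:**
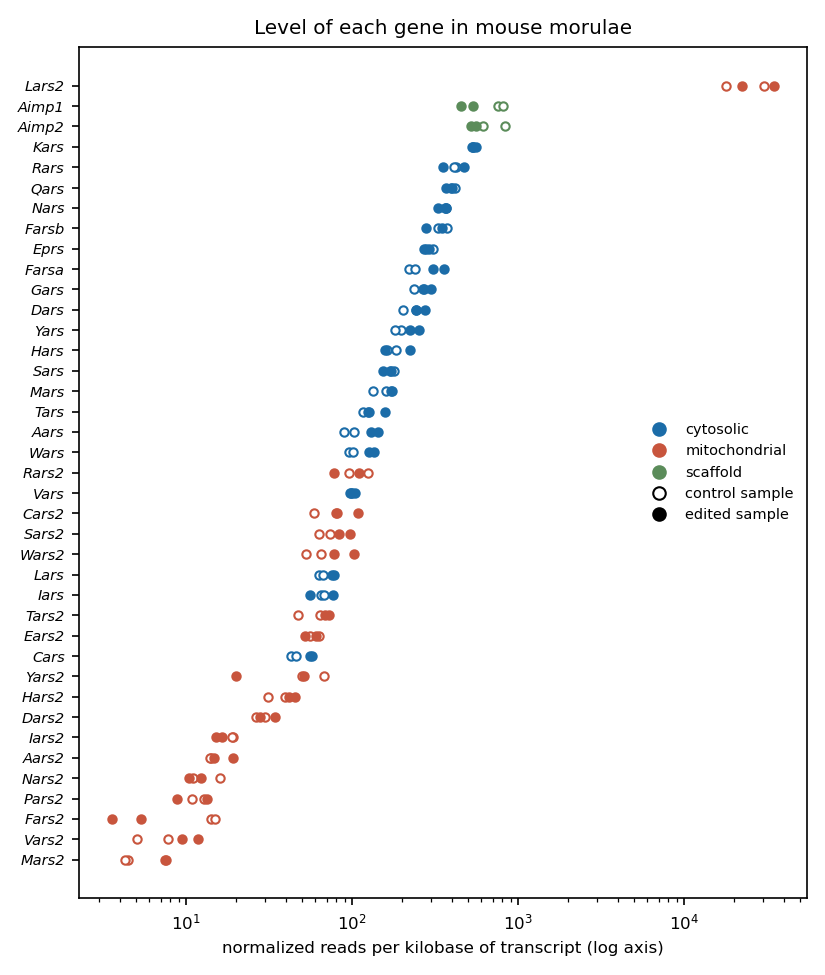
Normalized reads per kilobase of the longest annotated transcript (log axis) of each gene in the 2 control samples (open points) and 2 edited samples (filled points) of mouse morulae, ordered by mean. Lars2 at a mean of 26218 lies far to the right of the next gene, Aimp1 at 637, and cytosolic genes mostly lie above mitochondrial ones.

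In bovine blastocysts no synthetase gene passed the test, while the log2 fold changes of the cytosolic genes lay on 1 side. All 20 cytosolic genes had a log2 fold change above 0, with a median of 0.41 and a range from 0.03 for QARS to 0.72 for WARS, beside 51.5% of all 8884 tested genes above 0 and a median of 0.01. At least 0.2 was reached by 19 of the 20, against 25.7% of all genes. The lowest adjusted p was 0.792, and among all tested genes 0% were called higher and 0.0113% lower. By limma 8 synthetase genes had an unadjusted p under 0.05, all higher (21.1% of 38, against 2.77% of all genes), and none was lower (3.11% of all genes). edgeR and DESeq2 on recovered reads called none either. Each had 10 of the 38 synthetase and scaffold genes at an unadjusted p under 0.05, all higher (26.3%, against 2.65% of all genes). None was lower, against 3.19% of all genes with edgeR and 3.604% with DESeq2.

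WARS, the cytosolic tryptophanyl-tRNA synthetase, had 97.7, 262 and 383 normalized reads (lowest, median, highest) in controls and 258, 385 and 420 in edited samples (0.72 ± 0.27 SE, unadjusted p = 0.0149, adjusted p = 0.792). RARS, the arginyl-tRNA synthetase, had 88.4, 171 and 249.9 in controls and 199, 228 and 317 in edited samples (0.57 ± 0.21 SE, unadjusted p = 0.0155). For RARS all 6 edited samples exceeded the control median, and for WARS 5 did. The 2 genes nevertheless overlapped between groups, with control 3 lowest for WARS and control 6 lowest for RARS.

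YARS, the tyrosyl-tRNA synthetase, had 90.4, 161 and 210.3 normalized reads in controls and 145, 228 and 249.6 in edited samples (0.51 ± 0.21 SE, unadjusted p = 0.0236). LARS, the leucyl-tRNA synthetase, had 125, 151 and 195 in controls and 174, 203 and 239 in edited samples (0.39 ± 0.16 SE, unadjusted p = 0.0250). AARS had 158, 196 and 315 in controls and 246, 281 and 387 in edited samples (0.46 ± 0.19 SE, unadjusted p = 0.0253). All 6 edited samples exceeded the control median for LARS and AARS. No synthetase gene had every edited sample above every control, against 0.09% of all genes, nor every one below, against 0.158%.

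Controls 3 and 6 held the low end of this difference. One or other of them was the lowest of all 12 samples for 17 of the 20 cytosolic genes, control 6 for 11 and control 3 for 6. Relative to each gene's control mean, the median cytosolic gene stood at -0.38 on the log2 scale in control 3 and at -0.62 in control 6. In the other 4 controls it stood at 0.22 to 0.30, and in the edited samples at 0.22 to 0.62. Controls 3 and 6 also had the highest share of reads on the 18S ribosomal RNA gene RN18S1, 25.2% and 36.6%, against 12.4% to 20.8% in the other controls and 9.27% to 19.7% in edited samples.

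With both controls left out, an alternative chosen after seeing the data, 17 of the 20 cytosolic genes remained above 0 with a median of 0.24, and 0 of 38 had an unadjusted p under 0.05, against 1.85% of all genes higher and 1.96% lower. IARS, KARS and QARS were then below 0. The number with an unadjusted p under 0.05 was 3 without control 3 alone, 5 without control 6 alone and 4 without edited sample 5, all higher, against 1.54%, 2.14% and 1.99% of all genes. When samples were scaled to equal totals with RN18S1 left out, all 20 were above 0 with a median of 0.38. The part of RNA quality or of ribosomal RNA carry-over in the difference was not tested.

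**Figure D4:**
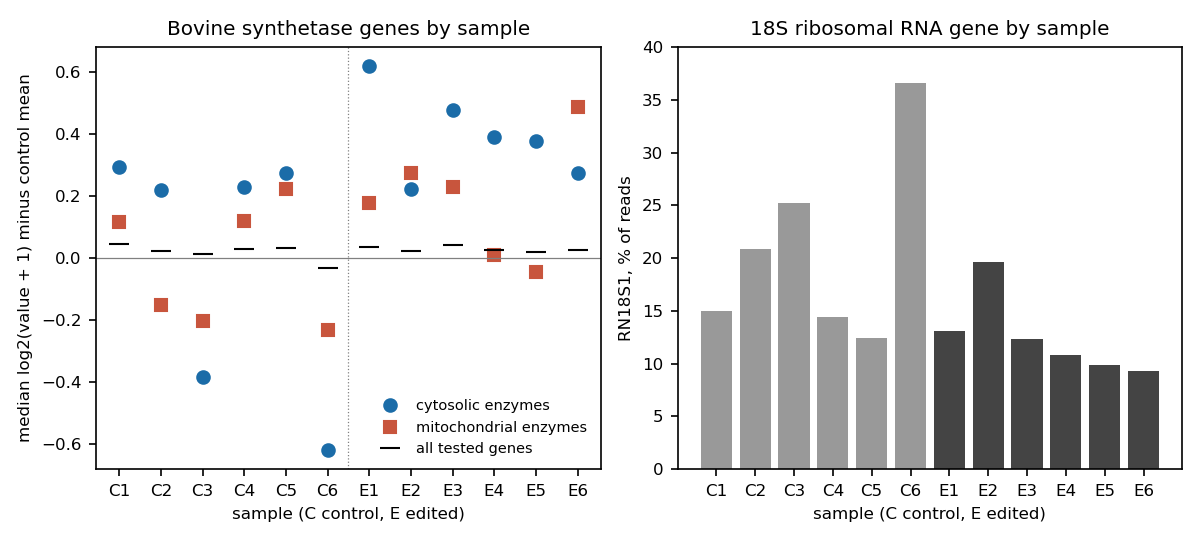
Left, median over the cytosolic genes (circles), mitochondrial genes (squares) and all tested genes (dashes) of log2(value + 1) minus the gene's control mean in each bovine control (C1 to C6) and edited (E1 to E6) sample; right, share of reads on RN18S1 in percent. Controls 3 and 6 are lowest for the cytosolic genes (-0.38 and -0.62) and highest for RN18S1 (25.2% and 36.6%).

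Of the 16 bovine mitochondrial enzymes tested, 10 had a log2 fold change above 0 and 6 below, with a median of 0.09 and a range from -0.54 for VARS2 to 0.59 for MARS2; the 2 classes were not tested against each other. Controls 3 and 6 were the lowest controls here too, with the median mitochondrial gene at -0.20 and -0.23 relative to the control mean. FARS2 had 43.7, 50.7 and 66.8 normalized reads (lowest, median, highest) in controls and 53.2, 72.9 and 102 in edited samples, all 6 above the control median (0.48 ± 0.20 SE, unadjusted p = 0.0283, adjusted p = 0.792). HARS2, the mitochondrial histidyl-tRNA synthetase, had 32.1, 37.0 and 62.2 in controls and 38.9, 59.8 and 70.1 in edited samples (0.49 ± 0.21 SE, unadjusted p = 0.0315). Both genes overlapped between groups. CARS2, the cysteine enzyme, had 0 normalized reads in 1 edited sample and a median of 15.5 over the edited samples. The scaffold genes AIMP1 and AIMP2 gave 0.10 ± 0.17 (SE) and 0.45 ± 0.22, neither past the threshold.

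For 15 amino acids a cytosolic and a mitochondrial gene were both tested in both species. The cytosolic gene had the larger log2 fold change for 13 of the 15 in cattle and for 7 of the 15 in mouse. For phenylalanine the cytosolic gene taken was FARSA. The other subunit gave -0.17 in mouse (Farsb) and 0.42 in cattle (FARSB), where FARS2 gave 0.48. Phenylalanine gave the widest gap in mouse, 0.52 for Farsa and -1.63 for Fars2, followed by tyrosine with 0.33 for Yars and -0.84 for Yars2. In cattle tryptophan gave 0.72 for WARS and -0.10 for WARS2, and valine 0.25 for VARS and -0.54 for VARS2. Histidine went the other way with 0.28 for HARS and 0.49 for HARS2. These are descriptions, and the difference within a pair was not tested.

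Between species, 20 of 38 genes tested in both tables had a log2 fold change above 0 in both, and 15 had opposite signs. The share of such signs over all shared symbols was not computed. The difference of log2 fold changes, mouse minus bovine, passed for 1 gene, against 6.07% of the 7073 shared symbols. That gene was FARS2, at -2.10 ± 0.60 (SE, adjusted p = 0.0307). Its log2 fold change was -1.63 in mouse, at the threshold (limma adjusted p = 0.0493), and 0.48 in cattle, where it did not pass (0.792). The difference lost its call without mouse control 1 (adjusted p = 0.197), control 2 (0.171) or edited sample 1 (0.0843), and with DESeq2 (0.0794). AIMP1 differed by -0.77 ± 0.25 (adjusted p = 0.0559) and AIMP2 by -0.86 ± 0.29 (adjusted p = 0.0685), neither past the threshold. Of the 20 cytosolic genes 13 were above 0 in both and 7 had opposite signs, with no difference past the threshold. As all 20 were above 0 in cattle, these counts only repeat those of mouse. Species and stage differ together here and cannot be told apart.

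**Figure D5:**
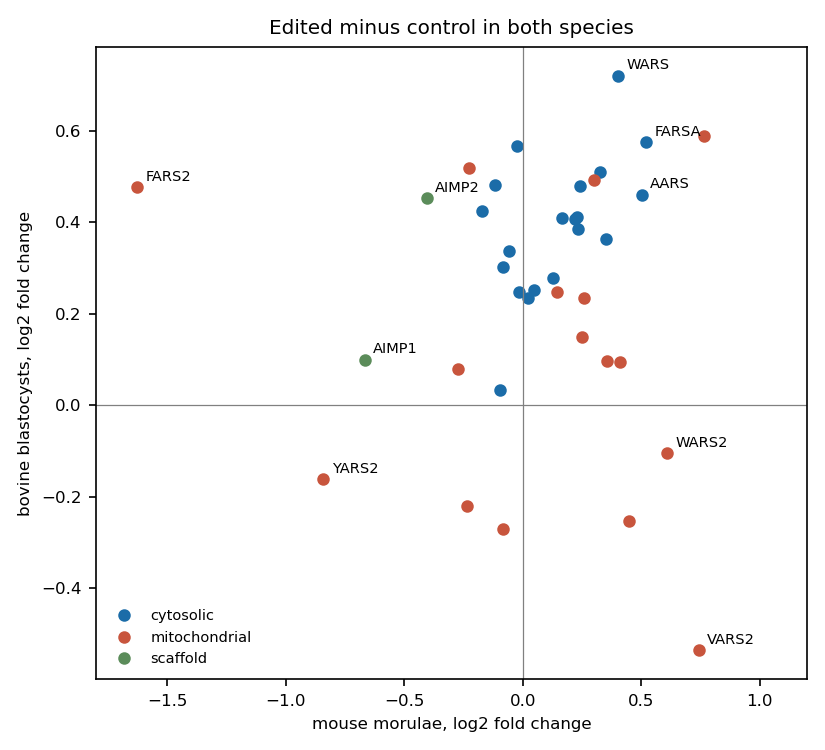
Log2 fold change (edited minus control) of each gene tested in both species, mouse morulae on the horizontal and bovine blastocysts on the vertical axis, coloured by class. FARS2 lies far to the left at -1.63 in mouse and 0.48 in cattle, and the scaffold genes AIMP1 and AIMP2 lie left of 0 in mouse and above 0 in cattle.

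Among genes that work beside the synthetases, those of the amino acid response included several that rose in edited mouse morulae. Of 30 tested, 8 passed higher and 0 lower, beside 6.92% and 8.38% of all genes, with a median log2 fold change of 0.37. Ddit4, an inhibitor of mTORC1 signalling, had 46.9 to 67.0 normalized reads in controls and 213 to 1270 in edited samples (3.19 ± 0.43 SE, adjusted p = 1.64e-05, and 1.90 without edited sample 1). Sesn2, a leucine sensor, had 92.7 to 120.2 in controls and 272 to 444 in edited samples (1.71 ± 0.26 SE, adjusted p = 5.90e-05). Pck2 and Nupr1 also passed, at 1.75 and 1.53, but neither without control 2 (adjusted p = 0.163 and 0.119) or without edited sample 1 (0.142 and 0.266, with Nupr1 at 0.88). Pck2 also missed the threshold with DESeq2 (0.0709). Atf4 itself gave 0.34 (adjusted p = 0.303) and Asns, the asparagine synthetase, 0.51 (adjusted p = 0.214). With each sample left out in turn Atf4 ranged from 0.050 to 0.63 and Asns from 0.24 to 0.77. At an unadjusted p under 0.05, 9 genes were higher and 2 lower, against 13.4% and 15.2% of all genes. The lower ones were Ddit3 (-0.92, adjusted p = 0.0831) and Cebpb (-1.11, adjusted p = 0.120), both transcription factors of stress responses. Over the same runs Ddit3 ranged from -1.22 to -0.62 and Cebpb from -1.96 to -0.26. The count of 8 fell without control 1, control 2 or edited sample 1, as did the number called among all genes. The robust form of limma left Ddit4 at an adjusted p of 0.261. In cattle none of 31 passed, with 5 at an unadjusted p under 0.05 higher and 1 lower, beside 2.77% and 3.11% of all genes, and a median of 0.22.

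Of 71 genes for tRNA maturation and handling tested in mouse, 6 passed higher and 4 lower, close to the shares over all genes, with a median of 0.03. Dtd2, which removes mischarged amino acids from tRNA, was lower (-1.22, adjusted p = 0.00254), and Trmt61a, a tRNA methyltransferase subunit, higher (1.21, adjusted p = 0.00880). Gtpbp3, a mitochondrial tRNA modifier, was higher too, at 1.10. Genes of ribonuclease P, which trims the front end of tRNA precursors, went both ways: Rpp25 was higher at 0.97, and Rpp21 (-0.95, adjusted p = 0.00120), Rpp30 (-0.67, 0.0255) and Pop4 (-0.65, 0.0160) were lower. With the length trend removed Rpp21 stood at -0.46 (adjusted p = 0.113) and Rpp30 at -0.36 (0.227), and without edited sample 1 Rpp30 stood at -0.42 (0.187), Pop4 did not pass (0.0735) and Trmt61a stood at 0.75 (0.151). Without control 1 none of these genes passed. Both counts fell without control 2, and the lower count fell without edited sample 1 and rose without edited sample 2. The number called among all genes moved the same way in each of these runs. In cattle 0 of 66 passed, 52 were above 0 (51.5% of all genes) with a median of 0.20, and 7 had an unadjusted p under 0.05, all higher (2.77% of all genes higher and 3.11% lower). Of the 12 elongation factor genes none passed in either species, with medians of -0.18 in mouse and 0.17 in cattle and, at an unadjusted p under 0.05, 1 higher and 1 lower in mouse and 0 in cattle.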

How the data were processed

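Per the submitters' processing notes, the authors used Trimmomatic, HISAT2, featureCounts and DESeq2 with the builds mm10 and ARS-UCD1.2; versions, annotation, strand and multi-match settings are not given in the sources used here. The deposited signal values are the authors' reads per gene over a sample-wise DESeq2 size factor, as the file headers and the numbers show. Every value was a whole multiple of 1 read (100% at a tolerance of 0.05 reads), so whole reads were recovered. The deposited tables also hold, from the authors' own comparison, log2 fold changes, standard errors, a test statistic (a score, not used) and p-values.

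Groups came from the sample titles. Genes with a mean of at least 10 were tested within each table on log2(value + 1), which understates changes of low genes, with limma 3.58.1 (R 4.3.3, trend, two-sided, Benjamini-Hochberg over all tested genes, threshold 0.05). edgeR 4.0.16 and DESeq2 1.42.0 on recovered reads, other scalings, filters and pseudocounts, and samples left out were alternatives. Differences between species used the summed squared standard errors and Satterthwaite degrees of freedom. In data simulated with a fixed dispersion, the limma fit recovered 6.06% of 1.5-fold, 49.2% of 2-fold and 96.7% of 4-fold changes in mouse. In cattle it recovered 5.97%, 31.7% and 100%. The mouse simulation changed 61 to 66 genes at each fold, while 1742 genes of the measured mouse data were called. These rates may therefore differ from those of the measured data. A gene that did not pass may still have changed by 1.5-fold or 2-fold. Members and gene lists were chosen with earlier results of these data known. Values per sample are given for genes that passed or, where under 6 passed, for the 6 with the smallest p; list genes named are up to 4 with the largest change among those passing, and others named (Aimp2, Kars, Eprs, Farsb, Mars2, Lars2, HARS2, CARS2, Eef1e1, Atf4, Asns, Ddit3, Cebpb, Rpp21, Rpp30, Pop4, overlapping neighbours) were chosen after their values were seen. Of mouse symbols 89.1% matched GENCODE M21 (GRCm38). No bovine coordinates are printed. Samples of a group differed beyond sampling noise, so none was merged. Intervals and standard errors come from limma and cover the spread between samples; the 3-read limits cover counting error only.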

Additional observations from a re-analysis of the deposited data

Results flagged for a closer look

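In bovine control 6, TARS, the threonyl-tRNA synthetase gene, had 257.6 normalized reads, far below the nearest control at 443. In bovine edited sample 6, PARS2 had 12.5 normalized reads, above the nearest at 7.46. These were the 2 distant samples among 78 groups of 6 that were examined, and chance alone gives about 1 in 20. The change of FARS2 differed between species by -2.10 on the log2 scale, mouse minus bovine.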

How the results depend on the processing

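Of the tested genes, 24 of 39 in mouse and 29 of 38 in cattle kept the sign of their log2 fold change under every alternative run, while 15 and 9 did not. No bovine gene of the family passed under any alternative. In mouse the number called lower was 1 at a pseudocount of 0.5, with no filter, at a mean of at least 50, at equal totals, with edgeR and with DESeq2, and 0 with the length trend removed or at equal totals without LOC101056014 and Lars2. The number called higher was 1 at a mean of at least 50 and 3 at equal totals with or without those 2 genes. Numbers do not pair the bovine samples by the correlation of their deviations (-0.19 to 0.34), as 1 of 6 samples matched its own number best. In mouse both numbers matched themselves best (0.106 for both pairs). With 2 samples in a group the 2 pairs share 1 value, so this cannot decide whether mouse samples are paired. With the replicate block 1 mouse gene of the family was called higher (Wars2, adjusted p = 0.0487) and 3 lower (Aimp1, Fars2 and Yars2, the last at 0.0422), 1816 genes of the table were called against 1742, and in cattle 1 against 1. At equal totals, and then also without the 2 genes, the mouse cytosolic median was 0.27 and 0.33 (20 of 20 above 0) and the scaffold median -0.41 and -0.35; with the length trend removed the latter was -0.23. For tRNA maturation 11 passed higher and 2 lower without those 2 genes, and 2 lower with the length trend removed. For elongation factors 1 passed higher at equal totals, without those 2 genes and with the length trend removed, and 1 lower at a mean of at least 50 and with the length trend removed. Of bovine mitochondrial genes 4 were above 0 at a mean of at least 50, where fewer genes are tested. Differences between species passed for 2 genes at a pseudocount of 5, at a mean of at least 50 or without bovine controls 3 and 6, and for 0 with DESeq2 or at equal totals without those 2 genes.

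Leaving out each sample in turn, mouse counts ranged from 0 to 2 (called higher), 0 to 3 (lower), 0 to 8 (tRNA maturation, higher and lower), 2 to 9 and 0 to 1 (amino acid response, higher and lower), 0 to 1 and 0 to 2 (elongation factors), and 0 to 4 for differences between species. The mouse cytosolic median ranged from 0.040 to 0.22 and the mitochondrial one from 0.0026 to 0.25. With 1 sample left in a mouse group, that sample is assumed to vary like the other group. Over the same runs Rars2 ranged from -0.47 to 0.022, Lars2 from -0.11 to 0.63, Hars from -0.12 to 0.37, Nars2 from -0.50 to 0.023, Eprs from -0.12 to 0.0053, Ears2 from -0.19 to 0.028, Pars2 from -0.41 to 0.17, Kars from -0.023 to 0.064, Rars from -0.23 to 0.18 and Iars from -0.24 to 0.20. In cattle IARS2 ranged from -0.037 to 0.24, SARS2 from -0.056 to 0.21, AARS2 from -0.012 to 0.42, TARS2 from -0.0044 to 0.16, CARS2 from -0.55 to 0.40 and QARS from -0.053 to 0.11.

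At equal totals, where the median of all genes was 0.12, mouse genes that changed sign were Sars at 0.0086, Qars at 0.030, Nars at 0.044, Eprs at 0.067, Ears2 at 0.043, Rars at 0.10 and Iars at 0.11. At equal totals without LOC101056014 and Lars2 the values were Farsb 0.013, Sars 0.065, Qars 0.087, Nars 0.10, Eprs 0.12, Ears2 0.0998, Pars2 0.055, Rars 0.16 and Iars 0.16. With the length trend removed Vars was -0.044 and Kars -0.024, and Iars was 0.0041 with edgeR and 0.0025 with DESeq2. In cattle WARS2 was 0.015 at equal totals and CARS2 0.034 with edgeR. Without bovine controls 3 and 6 IARS was -0.0070, KARS -0.095, IARS2 -0.064, TARS2 -0.088, CARS2 0.13 and QARS -0.080. The cause of these changes was not tested. No promoter motif was searched, since no promoter sequence was used here, and edgeR gives no standard error for the difference between species.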
